A study of Mus musculus with 2 samples.

Results

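The 9 genes described here handle heme, iron and reactive metals. Hmox1 breaks down heme, and Blvrb encodes a reductase of biliverdin and flavins. Fth1 and Ftl1 encode the ferritin that stores iron. Slc40a1, Slc11a1 and Tfrc move iron across membranes, and Mt1 and Mt2 encode metallothioneins. All 9 were taken by symbol from the 32285 genes listed in both matrices. They were counted in all 5671 barcodes of the normal diet and 5944 of the ketogenic diet library that held at least 500 UMIs (unique molecular identifiers, which count RNA molecules) from at least 300 genes. The cells came from tumors of MC38, a mouse colon adenocarcinoma line, grown under the skin of the right flank of female C57BL/6J mice aged 6 to 8 weeks after injection in matrigel. Mice of the ketogenic group were moved to that diet on day 4, those of the normal group stayed on a normal diet, and tumors of both were taken on day 14, depleted of dead cells and enriched for CD45, the marker carried by all leukocytes. Each diet is 1 library made from 5 pooled mice, so the spread between mice could not be measured, no test between the diets was possible, and every interval given is a 95% interval for counting error alone.

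Heme oxygenase 1 (Hmox1) opens the heme ring and releases iron, carbon monoxide and biliverdin. Biliverdin reductase B (Blvrb) is a reductase of biliverdin and flavins, and is not taken here as the step after Hmox1. Iron that is not used is stored in ferritin, a shell of heavy (Fth1) and light (Ftl1) chains, or leaves the cell through ferroportin (Slc40a1), the known exporter of iron from cells. Iron enters dividing cells mainly as transferrin through its receptor (Tfrc), while Slc11a1 moves metal ions out of the phagosome of macrophages and neutrophils. Macrophages recycle the iron of red blood cells, and the transcription factor NRF2, held in check at many of the same genes by the heme-sensing repressor BACH1, is known to drive Hmox1 and both ferritin genes. Metallothioneins are small cysteine-rich proteins that bind zinc and copper and are induced by metals, glucocorticoids and low oxygen.

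Iron also controls several of these genes after transcription, through a short RNA hairpin, the iron responsive element, that is bound by the iron regulatory proteins when iron is low. They are shown because they mark the members that this system is known to act on: in the 5′ UTR they hold back translation, and in the 3′ UTR they protect the transcript. A search for an unpaired C, a stem of 5 bases, the loop CAGTGN with a last base other than G, and 5 bases of which at least 4 pair back with the stem found 7 elements in the GENCODE vM21 transcripts of 4 members, all with 5 of 5 stem pairs. The same pattern was present in 3423 of 58797 protein-coding transcripts (5.82%), and a match is a description, not a shown site. Each element is printed 5′ to 3′ on the transcript strand with the loop in capitals.
Fth1: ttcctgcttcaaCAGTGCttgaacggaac
Ftl1: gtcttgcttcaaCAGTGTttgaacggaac
Slc40a1: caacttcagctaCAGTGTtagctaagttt
Tfrc element 1: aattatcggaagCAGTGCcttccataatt
Tfrc element 2: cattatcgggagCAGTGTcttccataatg
Tfrc element 3: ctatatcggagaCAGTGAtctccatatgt
Tfrc element 4: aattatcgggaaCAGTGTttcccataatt
On GRCm38, the Fth1 element lies in the 5′ UTR within exon 1 at chr19:9982732-9982760 on the plus strand. Both other 5′ UTR elements also lie in exon 1, that of Ftl1 at chr7:45459779-45459807 and that of Slc40a1 at chr1:45925465-45925493, on the minus strand. The Tfrc elements lie together in the 3′ UTR in exon 19 on the plus strand, at chr16:32631219-32631247, chr16:32631598-32631626, chr16:32631663-32631691 and chr16:32631710-32631738. The libraries read RNA, so control of translation through the 5′ elements was not measured here.

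The metallothionein promoters are shown because Mt2 and Mt1 are neighbors on chromosome 8 and their RNA differed between the libraries in unlike ways. The core of the metal response element, TGCNCNC, which the zinc-sensing factor MTF1 is known to bind, was searched on both strands in the 250 bases before the RefSeq start of each gene (GRCm38.p6), and 7 of the 9 members had a promoter in the table. In capitals are the cores, read on either strand.
Mt2: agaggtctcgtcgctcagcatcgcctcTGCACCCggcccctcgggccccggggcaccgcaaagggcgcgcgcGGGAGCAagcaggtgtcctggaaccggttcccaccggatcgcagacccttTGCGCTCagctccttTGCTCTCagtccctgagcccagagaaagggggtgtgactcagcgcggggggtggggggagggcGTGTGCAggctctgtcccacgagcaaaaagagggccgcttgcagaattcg
Mt1: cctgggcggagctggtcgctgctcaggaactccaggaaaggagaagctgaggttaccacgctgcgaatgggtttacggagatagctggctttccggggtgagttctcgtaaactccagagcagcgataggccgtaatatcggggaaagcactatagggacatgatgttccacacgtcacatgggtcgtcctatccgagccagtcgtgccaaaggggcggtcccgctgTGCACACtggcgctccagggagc
The Mt2 stretch (chr8:94172368-94172617, plus strand) held 5 cores, a number reached by 0.344% of 32851 promoters of that length. The Mt1 stretch (chr8:94178839-94179088, plus strand) held 1, and 44.4% of promoters held at least that many, and 2 more cores followed within 50 bases after the start. Counting those 50 bases, Mt2 held 6 cores and Mt1 3, numbers reached by 0.225% and 7.10% of promoters. The Mt1 count thus depended on where the window ended, and bases further on were not searched. These windows therefore do not show that the Mt1 promoter has fewer cores than that of Mt2. A link between the cores and the RNA differences was not tested. In the 250 bases, Tfrc held 3 cores (reached by 4.65% of promoters) or 1, depending on the start used. Slc11a1 held 2 (15.2%), and Blvrb, Ftl1 and Fth1 held 0.

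Barcodes were placed in classes by the summed counts of marker genes, none of them a member, and 9 classes had at least 50 barcodes in each library. A class name stands for barcodes that passed that gate. Macrophages (C1q genes, Apoe, Mrc1) numbered 1424 under the normal diet and 704 under the ketogenic diet, monocytes 951 and 973, neutrophils 111 and 85, type 2 dendritic cells (cDC2) 125 and 68, natural killer (NK) cells 1117 and 1936, CD8 T cells 365 and 454, regulatory T cells 61 and 72, other T cells 142 and 238, and non-immune barcodes with tumor-type or fibroblast genes 69 and 106. Levels are given as CPM, the UMIs of the gene per 1000000 UMIs of the class. Neutrophils were shallow, with medians of 987 and 1051 UMIs, and non-immune barcodes deep, with 33370 and 31702. Barcodes with markers of several lineages, 929 and 840, were set aside as mixed. Classes with fewer than 50 barcodes in a library (CCR7 and plasmacytoid dendritic, mast, gamma-delta T and B cells) were not compared. The kept barcodes held 35623303 and 39758619 UMIs, the median barcode 4200 and 3922 UMIs (1637 and 1484 genes), and 7 barcode sequences (0.123%) occurred in both libraries. The macrophage marker list stood at 14764 and 13505 CPM in macrophages and 1324 and 1204 in monocytes, and barcodes within 20% of that cut were 9.05% and 10.7% of both classes together.

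Summed over all kept barcodes, Hmox1 stood at 228 CPM under the normal diet and 136 under the ketogenic diet, a ratio of 0.597. Ftl1 stood at 3887 and 2455 CPM, Slc40a1 at 5.53 and 2.24, and Slc11a1 at 74.8 and 42.2. These 4 of the 9 members were at least 1.5-fold lower in the ketogenic library and 0 were higher, where 9.65% of all 12771 measured genes were lower and 4.39% higher. Such sums mix the number of cells of each class with the RNA per cell. Macrophages, which supplied 43.7% of all Hmox1 UMIs under the normal diet and 28.6% under the ketogenic diet, were 25.1% and 11.8% of barcodes. With the ketogenic class levels weighted by the normal library's share of UMIs per class, the ratios came to 0.875 for Hmox1, 0.875 for Ftl1, 0.812 for Slc11a1 and 0.493 for Slc40a1, so of the 4 only Slc40a1 remained past 1.5-fold. This weighting took the barcodes with markers of several lineages as 1 class. These mixed barcodes held 28.8% and 35.3% of Hmox1 UMIs and 27.4% and 56.2% of Slc40a1 UMIs in the normal and ketogenic library. Their macrophage marker list stood at 5555 and 2597 CPM. The part of that difference in the weighted ratios was not tested. Mt2, at 43.2 and 35.1 CPM in the plain sums, moved the other way, from a ratio of 0.814 to 0.683.

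Hmox1 was highest in macrophages, at 542 (524 to 560.3) CPM under the normal diet and 549 (522 to 577) under the ketogenic diet, and these intervals overlapped. Neutrophils (276 and 192 CPM) and monocytes (264 and 236 CPM) came next and did not differ from each other beyond their intervals in either library. With classes rebuilt from graph clusters, neutrophils were at 183 and 246 CPM and monocytes at 187 and 219.6 CPM, so both turned from lower to higher between the diets, and cDC2 went from 145 and 101 CPM to 49.7 and 52.5 CPM. Of the gated barcodes in the cDC2 cluster, 57.1% were cDC2 by gate. NK cells were near the bottom, at 47.1 (42.1 to 52.5) CPM under the normal diet and 20.5 (17.9 to 23.4) under the ketogenic diet. By cluster NK cells held only 6.43 and 3.99 CPM. Likewise CD8 T cells stood at 79.3 and 69.1 CPM by gate and 17.1 and 6.85 CPM by cluster, while macrophages, at 589 and 539 CPM by cluster, kept their level, so the gated lymphocyte levels of Hmox1 depend on how the class is drawn. The RNA was concentrated in few macrophages: the 10% of barcodes with the most Hmox1 held 72.0% and 75.0% of its UMIs. Thinned to 1000 UMIs per barcode, which left out 55 and 40 shallower barcodes, 24.1% and 23.8% of macrophages showed a Hmox1 UMI (48.9% and 42.3% unthinned), against 1.76% and 0.917% of NK cells, a class not known for it, which left out 39 and 82 (6.18% and 3.46% unthinned). Median depths were 3825 and 3466 UMIs in macrophages and 4884 and 3924 in NK cells.

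Blvrb followed another order, with non-immune barcodes (205 and 199 CPM) and macrophages (202 and 179 CPM) together at the top, their intervals overlapping in both libraries. Monocytes were lower, at 97.2 and 86.3 CPM, and the lymphocyte classes ranged from 14.7 to 31.2 CPM. The profiles of these enzymes across classes were thus unlike: Hmox1 in non-immune barcodes was 116 and 70.0 CPM, far below its macrophage level.

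**Figure D1:**
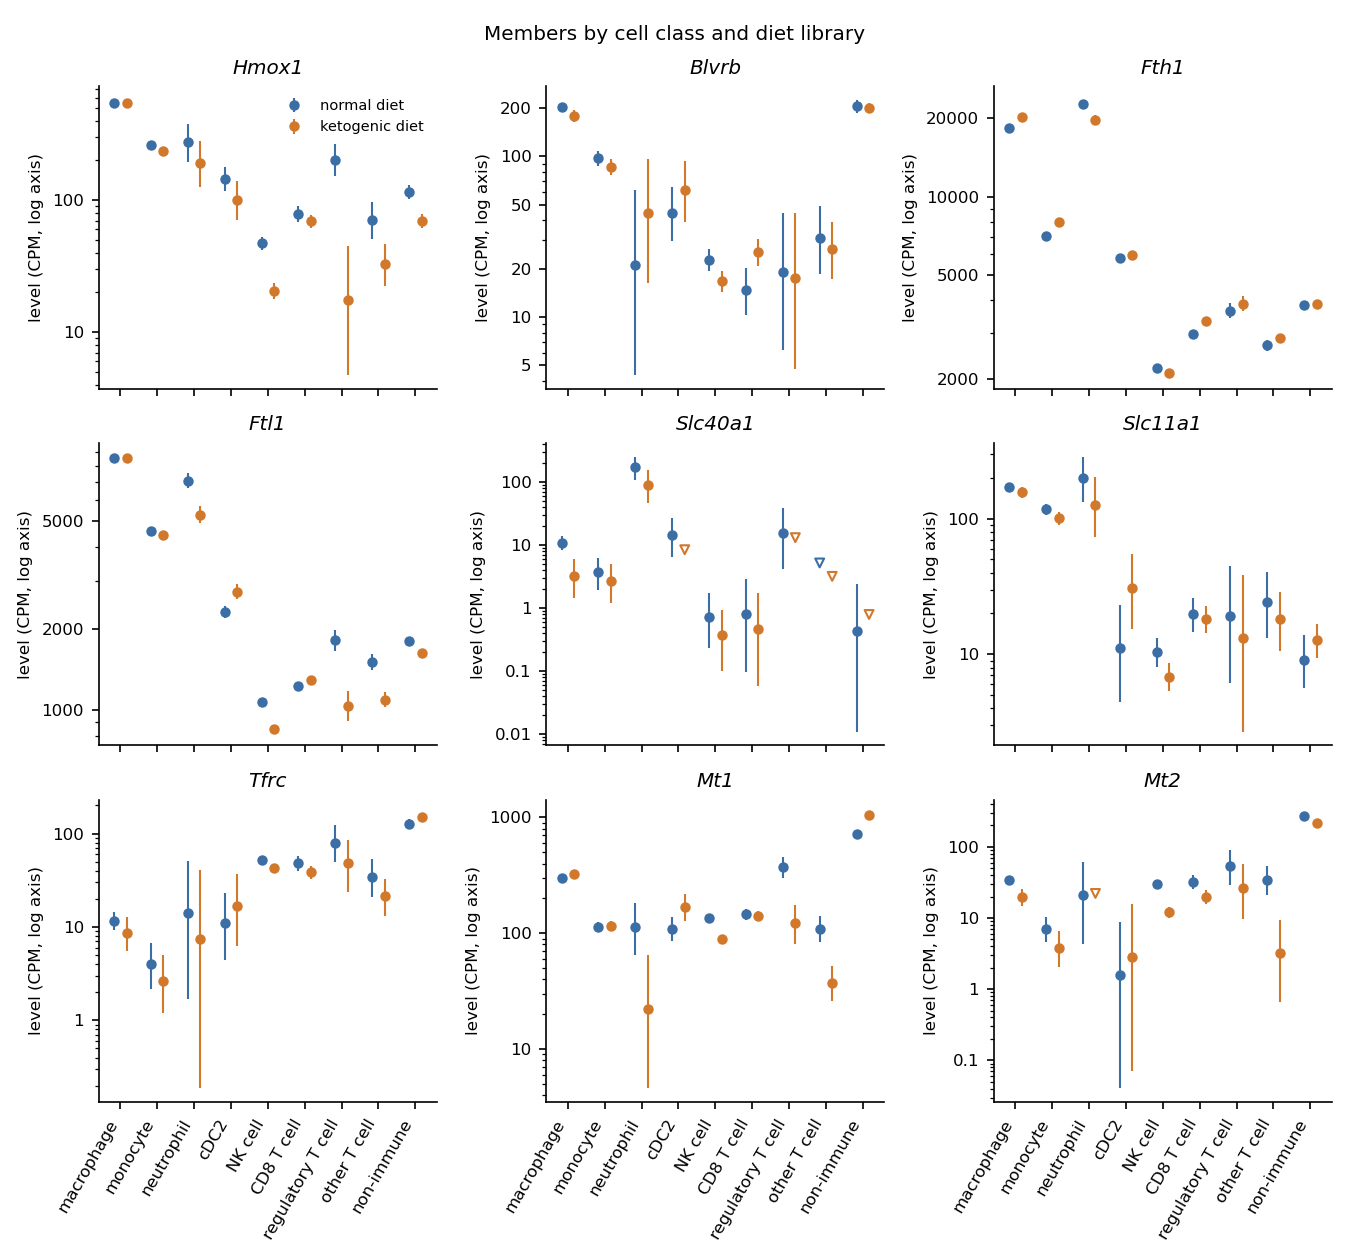
Level of each member (CPM of the class, log axis) in the 9 classes. Points are the normal (blue) and ketogenic (orange) diet libraries, bars are exact 95% Poisson intervals for counting error, and an open triangle marks the level of 3 UMIs where the class held 0. Hmox1, Ftl1 and Slc11a1 are high in macrophages, monocytes and neutrophils, while Tfrc, Mt1 and Mt2 peak in non-immune barcodes.

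Fth1 in macrophages stood at 18287 (18184 to 18391) CPM under the normal diet and 20263 (20097 to 20429.7) under the ketogenic diet. Neutrophils were at 22730.3 and 19755 CPM, above macrophages in the normal library and not beyond the intervals in the ketogenic one. From there the order was the same in both libraries, through monocytes (7076 and 7971 CPM) and cDC2 (5795 and 5944 CPM) to NK cells, the lowest class at 2196 and 2098 CPM. The light chain gene Ftl1 stood at 8606 (8535 to 8678) CPM under the normal diet and 8578 (8469.7 to 8686) under the ketogenic diet in macrophages, followed by neutrophils (7075 and 5289 CPM), monocytes (4618 and 4462 CPM) and, lowest again, NK cells (1067 and 849 CPM). Both ferritin genes were thus highest in phagocytes and lowest in NK and T cells. By cluster, Fth1 stood at 1500.04 and 1642 CPM in NK cells, 1728 and 1805 CPM in CD8 T cells and 1653 and 1803 CPM in other T cells, and the lowest Ftl1 level was then that of CD8 T cells (661 and 627 CPM), with NK cells at 745 and 675 CPM. Reads of the near-identical copy Ftl1-ps1 were 0.852% and 1.02% of the summed macrophage UMIs of Ftl1 and that copy.

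Ferroportin, Slc40a1, was counted rarely and was highest in neutrophils, at 169.6 (109 to 252) CPM under the normal diet and 88.5 (45.7 to 155) under the ketogenic diet. These levels rest on 24 and 12 UMIs, found in 18 of 111 and 11 of 85 barcodes, and the barcode with the most held 3 and 2 of them. Macrophages held 10.9 and 3.2 CPM (71 and 9 UMIs), monocytes 3.68 and 2.65 CPM, and NK cells 0.731 and 0.370 CPM from 5 and 4 UMIs. No UMI was counted in other T cells of either library, which allows up to 5.2 and 3.19 CPM.

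Slc11a1 was shared by neutrophils (198 and 125 CPM), macrophages (169.7 and 156 CPM) and monocytes (117 and 101 CPM), and no other class passed 30.9 CPM. The step from monocytes down to the next class exceeded the intervals in both libraries. Tfrc had nearly the opposite order. It was highest in non-immune barcodes, at 128 (113 to 143) CPM under the normal diet and 151 (139 to 164) under the ketogenic diet, then in regulatory T cells (80.2 and 48.0 CPM, on 21 and 11 UMIs), NK cells (51.9 and 42.7 CPM) and CD8 T cells (48.4 and 38.7 CPM), and lowest in monocytes (3.97 and 2.65 CPM), with macrophages at 11.6 and 8.53 CPM. Among the T and NK classes, regulatory T, NK and CD8 T cells did not differ from one another beyond their intervals in either library.

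Both metallothionein genes peaked in non-immune barcodes. Mt1 stood there at 713 (678 to 748) CPM under the normal diet and 1050.3 (1018 to 1083) under the ketogenic diet, where 1 ketogenic barcode held 655 of 3975 UMIs, and Mt2 at 273 (252 to 295) CPM under the normal diet and 218 (203 to 233) under the ketogenic diet. In macrophages Mt1 was 298 and 323 CPM and Mt2 34.2 and 19.5 CPM. Monocytes held 113 and 115 CPM of Mt1 and 7.09 and 3.83 CPM of Mt2. Mt1 was higher in macrophages than in monocytes in both libraries, by 2.64 (2.37 to 2.95) and 2.80 (2.49 to 3.17) fold, and so was Mt2, by 4.82 (3.18 to 7.61) and 5.10 (2.75 to 10.2) fold. Mt1 and Mt2 are similar in sequence, and how reads that match both were counted is not given in the sources used here.

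Between the diets, most ratios within a class lay inside 1.5-fold. Of 55 pairs of member and class with at least 50 UMIs over both libraries, 12 were at least 1.5-fold lower in the ketogenic library and 2 were higher. Of all measured genes, 6.04% (CD8 T cells) to 16.5% (neutrophils) were lower, depending on the class. From 1.81% (monocytes) to 15.9% (neutrophils) were higher, and in each class more genes were lower than higher. Fth1 stayed within 1.5-fold in all 9 classes, with ratios of ketogenic over normal from 0.869 in neutrophils to 1.13 in monocytes. Ftl1 was past it in regulatory T cells alone. In monocytes 0 of 6 measured members were lower or higher, where 10.5% of measured genes were lower and 1.81% higher, and in neutrophils 0 of 3, where 16.5% and 15.9% were.

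**Figure D2:**
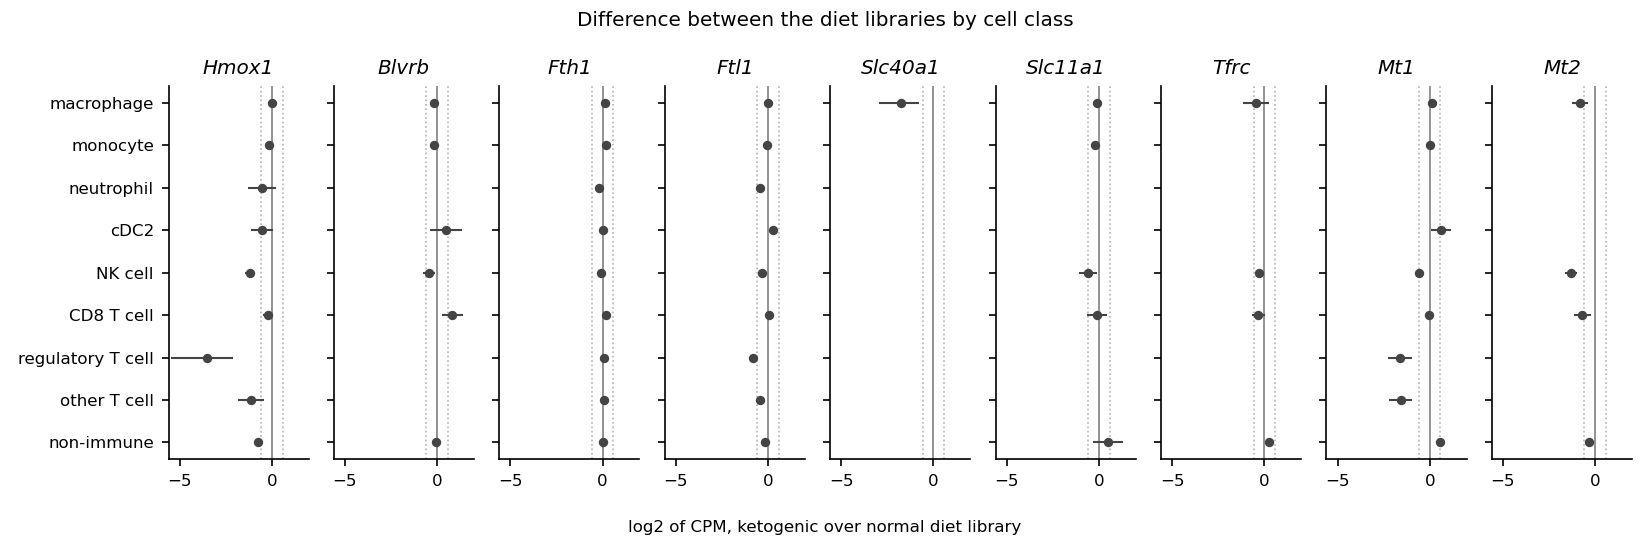
Difference between the libraries as log2 of ketogenic over normal CPM for each member (panels) and class (rows), for pairs with at least 50 UMIs over both libraries. Bars are exact 95% intervals for counting error, the solid line marks no difference and the dotted lines 1.5-fold. Fth1 lies between the dotted lines in every class, while 3 members in NK cells and 2 in macrophages lie left of them.

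In macrophages 2 of 9 members were lower and 0 higher, where 12.1% of 8510 measured genes were lower and 2.3% higher. They were Slc40a1, at 10.9 and 3.2 CPM, a ratio of 0.294 (0.129 to 0.590), and Mt2, at 34.2 and 19.5 CPM, a ratio of 0.572 (0.418 to 0.771). The 71 Slc40a1 UMIs of the normal library came from 32 barcodes, of which 1 held 9, and the 9 of the ketogenic library from 8. Hmox1 was level in the same cells, with a ratio of 1.01 (0.953 to 1.08), as was Ftl1, at 0.997 (0.982 to 1.01), while Fth1 was 1.11 (1.10 to 1.12). The members' median log2 ratio in macrophages was −0.12, beside −0.15 over all measured genes.

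In the NK class 3 of 8 measured members were lower and 0 higher, where 6.64% of measured genes were lower and 1.87% higher. The members' median log2 ratio was −0.51, beside −0.09 over all genes. Hmox1 stood at 47.1 and 20.5 CPM, a ratio of 0.436 (0.366 to 0.519), Mt2 at 30.3 and 12.02 CPM, a ratio of 0.397 (0.316 to 0.497), and Slc11a1 at 10.4 and 6.84 CPM, a ratio of 0.659 (0.469 to 0.926). Mt1 was just inside the limit, at 134 and 89.8 CPM and a ratio of 0.669 (0.611 to 0.733). Macrophage and red cell RNA moved the same way in these barcodes: the macrophage marker list summed to 197 and 125 CPM and the erythroid list to 288 and 2.96 CPM, and their part in these differences was not tested. The free RNA estimated for NK cells would give 7.94 and 7.02 CPM of Hmox1, and subtracting it left 39.1 and 13.5. Barcodes clustered as NK cells held 6.43 and 3.99 CPM of Hmox1, a log2 ratio of −0.69, and 3.39 and 2.05 CPM of Slc11a1, while Mt2, at 31.1 and 11 CPM, kept its level and had a log2 ratio of −1.50. Hmox1 in NK cells was also uneven, with 56 of 322 UMIs in 1 normal and 75 of 222 in 1 ketogenic barcode, and without those barcodes the log2 ratio went from −1.20 to −1.52.

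CD8 T cells had 1 of 8 members higher and 1 lower, where 2.53% and 6.04% of measured genes were. Blvrb stood at 14.7 and 25.4 CPM, a ratio of 1.73 (1.18 to 2.59), and Mt2 at 32.1 and 19.9 CPM, a ratio of 0.621 (0.452 to 0.854). By cluster, Blvrb was at 4.27 and 11.6 CPM, on too few UMIs to count, and Mt2 at 42.7 and 30.1 CPM, no longer past 1.5-fold. In cDC2 Mt1 was higher, at 109.7 and 169 CPM and a ratio of 1.54 (1.07 to 2.20), the 1 call among 5 measured members, where 6.16% of genes were higher and 11.6% lower. Without the barcode richest in Mt1 in each library the cDC2 log2 ratio was 0.49 instead of 0.62, under the limit. Non-immune barcodes had Hmox1 lower, at 116 and 70.0 CPM and a ratio of 0.602 (0.506 to 0.716), 1 of 8 members, where 7.56% were lower and 4.26% higher. That call too was lost without the top barcodes, at −0.57 instead of −0.73 on the log2 scale. The macrophage marker list in these barcodes was also lower, at 146 and 89.0 CPM, and its part in the Hmox1 difference was not tested.

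The small T cell classes held 5 of the 12 lower calls, and single barcodes supplied much of them. In regulatory T cells 3 of 4 measured members were lower, where 10.2% of genes were lower and 8.37% higher: Hmox1 at 202 and 17.4 CPM (53 and 4 UMIs), Mt1 at 370.4 and 122 CPM and Ftl1 at 1814 and 1038 CPM. Marker lists of other cells and of the cell cycle were lower in these barcodes too, and their part was not tested: the macrophage list stood at 462 and 288 CPM, the Arg1 list at 573 and 270.4, the NK list at 1050.1 and 414 and the cell cycle list at 905 and 353. A single normal barcode held 33 of the 53 Hmox1 UMIs, and the richest held 61 of 97 Mt1 and 135 of 475 Ftl1 UMIs. Without the top barcodes Mt1 went from a log2 ratio of −1.60 to −0.59 and Ftl1 from −0.80 to −0.47. Hmox1 was not among the lower calls without the top barcodes, in regulatory T cells or in other T cells. In other T cells 2 of 4 were lower, where 9.89% were lower and 3.81% higher: Hmox1 at 71.0 and 32.9 CPM and Mt1 at 109 and 37.2 CPM, the latter with 51 of 63 normal UMIs in 1 barcode and a log2 ratio that turned from −1.55 to 0.49 without the top barcodes. Classes rebuilt from clusters held 21.4 and 19.8 CPM of Hmox1 and 715 and 746 CPM of Ftl1 in regulatory T cells and 8.84 and 6.83 CPM of Hmox1 in other T cells, none of them past 1.5-fold, while Mt1 in regulatory T cells stayed lower, at 347 and 131 CPM.

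Hmox1 and both metallothionein genes differed more between states of macrophages than between the diets within the class. Macrophages with at least 2500 CPM of a list led by Arg1 and Spp1 (with Mmp12, Ndrg1 and Hilpda), markers of suppressive and low-oxygen tumor macrophages, numbered 319 and 205 and are called Arg1-high. Hmox1 went from 341 to 1324 CPM between Arg1-low and Arg1-high macrophages in the normal library, a ratio of 3.88 (3.63 to 4.15), and from 222 to 1426 in the ketogenic one, a ratio of 6.43 (5.76 to 7.19). Mt1 went from 161 to 829.8 and from 166 to 743 CPM, ratios of 5.15 and 4.47, and Mt2 from 13.3 to 115 and from 5.85 to 56.3, ratios of 8.67 and 9.62. Hmox1, Blvrb, Ftl1, Mt1 and Mt2 were at least 1.5-fold higher in Arg1-high macrophages of both libraries, and the same 5 were with the cut doubled.

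In all, 6 of 9 measured members were higher in Arg1-high macrophages of the normal library, where 7.57% of measured genes were, and 6 of 7 in the ketogenic library, where 7.95% were. Lower were 0 members in both, where 10.6% and 14.5% of genes were. Besides the 5 shared members, the call in the normal library was Slc40a1, from 6.36 to 28.4 CPM on 33 and 38 UMIs. In the ketogenic library Slc40a1 went from 3.41 to 2.62 CPM on 7 and 2 UMIs, too few to be measured. The further call in the ketogenic library was Fth1, which went from 15869 to 32054 CPM, a ratio of 2.02 (1.99 to 2.05), beside 1.46 (1.44 to 1.48) in the normal library. Blvrb was higher by 1.70 and 1.91 fold, and Ftl1 by 1.85 and 2.22. Slc11a1, at 1.22 and 1.15, was nearly level. Barcodes within 20% of the cut were 7.51% and 7.53% of macrophages, and median depths were 3728 and 3333 UMIs in Arg1-high and 3834 and 3484 in Arg1-low macrophages.

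Read along 4 ranges of the Arg1 list (0, under 1000, 1000 to 2500, and 2500 CPM or more), Hmox1 in the normal library was higher at each step, at 205, 318, 566 and 1324 CPM. In the ketogenic library it stayed low up to the last range, at 183, 205, 326 and 1426 CPM. Ftl1 had the same shape, with 6260.1, 6948, 9564 and 13545 CPM under the normal diet and 6154, 6295, 7270.3 and 14299.8 CPM under the ketogenic diet. Fth1 was higher at each step in both, from 14756 to 24376 and from 14056 to 32054 CPM. Mt1 was 89.4, 164, 248 and 829.8 CPM under the normal diet and 124, 187, 188 and 743 CPM under the ketogenic diet, with most of its change in the last range.

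**Figure D3:**
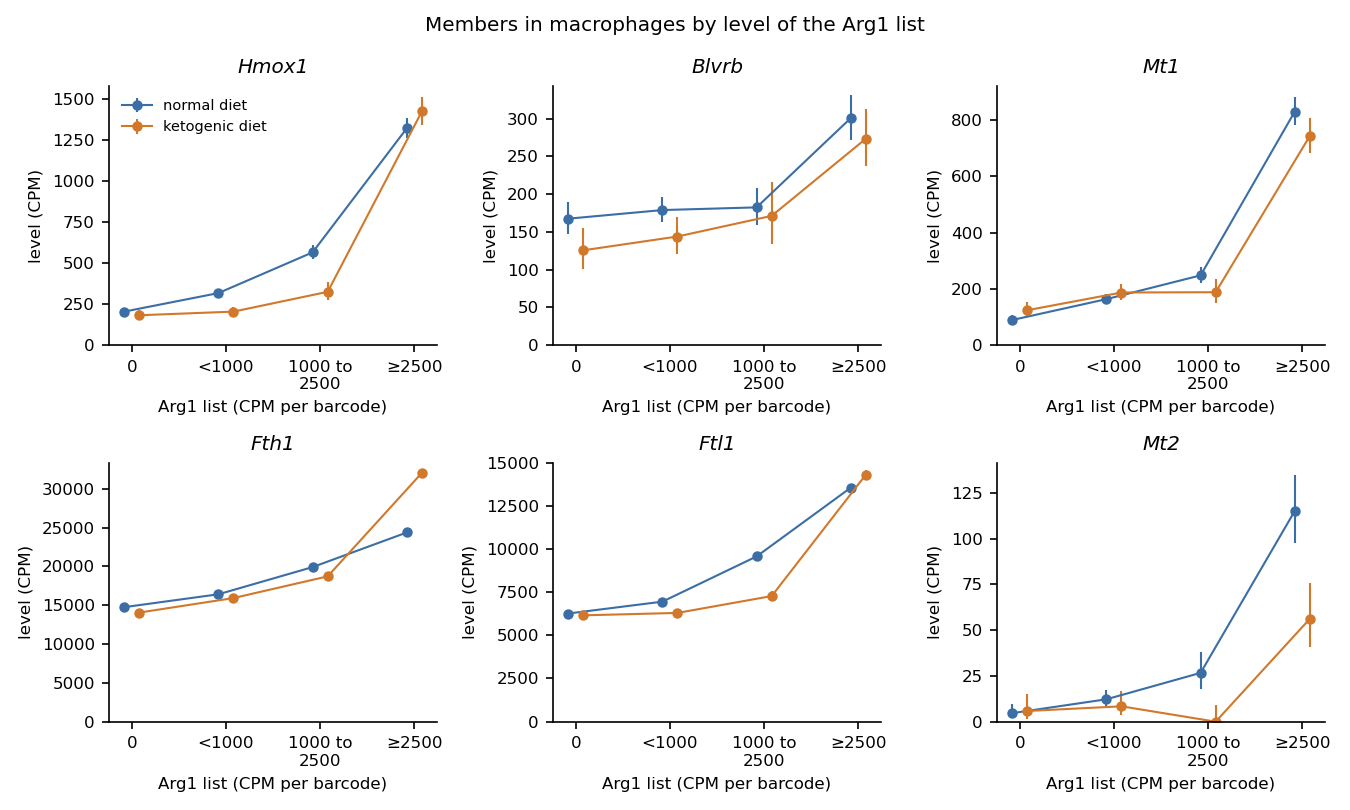
Level of 6 members (CPM, linear axes from 0) in macrophages by the level of the Arg1 list per barcode. Points and lines are the normal (blue) and ketogenic (orange) diet libraries and bars are exact 95% Poisson intervals for counting error. All 6 are highest in the last range in both libraries, and the ketogenic Hmox1 level lies under the normal one in the range of 1000 to 2500 CPM.

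The level Hmox1 ratio over all macrophages covered unlike ratios in these states. In Arg1-low macrophages Hmox1 stood at 341 and 222 CPM, a ratio of 0.651 (0.586 to 0.722), and in Arg1-high macrophages at 1324 and 1426 CPM, a ratio of 1.08 (0.998 to 1.16), while Arg1-high barcodes were 22.4% of macrophages under the normal diet and 29.1% under the ketogenic diet. Without the top barcodes the Arg1-low ratio was 0.626 (0.561 to 0.697), but with the Arg1 cut doubled it was 0.849 (0.783 to 0.920) and no longer past 1.5-fold. Fth1 was 1.31 (1.29 to 1.34) in Arg1-high and 0.949 (0.937 to 0.961) in Arg1-low macrophages. Mt2 was lower in both states, at 115 and 56.3 CPM in Arg1-high and 13.3 and 5.85 CPM in Arg1-low macrophages, with ratios of 0.488 (0.340 to 0.689) and 0.440 (0.217 to 0.819), while Mt1 was 0.896 (0.808 to 0.992) and 1.03 (0.908 to 1.17). Between the diets, 1 of 7 members was lower in Arg1-high macrophages, where 13.1% of genes were, and 2 of 8 in Arg1-low, where 12.7% were. No member was higher in either, where 2.49% and 2.38% of genes were.

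Within single macrophages, thinned to 1000 UMIs, the counts of some members were read in pairs. Across 1369 normal and 664 ketogenic macrophages, the counts of Hmox1 and Mt1 had a Pearson r of 0.414 and 0.367, Fth1 and Ftl1 0.483 and 0.536, Hmox1 and Ftl1 0.402 and 0.491, and Mt1 and Mt2 0.452 and 0.292. Mt1 was seen in 30.6% and 33.5% of macrophages with a Hmox1 UMI and in 9.53% and 12.6% of those without. Within Arg1-high macrophages alone the r of Hmox1 and Mt1 was 0.389 and 0.413, and within Arg1-low macrophages 0.285 and 0.113. Hmox1 and Blvrb were weakly related, with 0.189 and 0.113 over all macrophages and 0.271 and 0.0015 in Arg1-high ones. Hmox1 and Slc11a1 had 0.0701 and 0.0577 across all macrophages, so that pair was nearly unrelated. These barcodes share a library and are a description, not replicates.

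Among monocytes, Hmox1 took opposite orders in the 2 libraries between barcodes high and low in interferon-induced genes (Cxcl10, Rsad2, Ifit1 and others, cut at 8000 CPM). In the normal library it was 193 CPM in interferon-high and 322 in interferon-low monocytes, a ratio of 0.6 (0.521 to 0.689), and in the ketogenic library 282 and 214, a ratio of 1.32 (1.14 to 1.52). With the cut doubled the ratios were 0.476 (0.390 to 0.578) and 2.17 (1.86 to 2.52). Without the top barcodes the ketogenic ratio was 1.15 (0.979 to 1.35), and the difference between the libraries was not tested. Mt1 was lower in interferon-high monocytes of both libraries, at ratios of 0.551 (0.442 to 0.683) and 0.434 (0.330 to 0.563), while Fth1, at 1.12 and 1.16, differed little. With the interferon cut, 2 of 6 measured members, Hmox1 and Mt1, were lower in the normal library, where 19.7% of genes were lower and 10% higher, and 1, Mt1, in the ketogenic library, where 19.2% were lower and 9.78% higher. Between the diets, Hmox1 was lower in interferon-low monocytes, with a ratio of 0.665 (0.589 to 0.750), 1 of 6 members there against 10.5% of genes, and was 1.46 (1.24 to 1.71) in interferon-high ones, where 0 of 6 members passed 1.5-fold, against 10.8% of genes lower and 2.79% higher. Red cell RNA differed between these barcodes too, with the erythroid list at 88.3 and 6.20 CPM in interferon-low and 5.03 and 1.76 CPM in interferon-high monocytes of the normal and ketogenic library, and its part in these differences was not tested.

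The other genes of these pathways were read from 6 lists with 78 genes on heme transport and synthesis, iron uptake and sensing, the NRF2 and BACH1 axis and zinc handling. In Arg1-high macrophages, Gclm, which makes glutathione precursors, went from 26.6 to 64.3 CPM under the normal diet and 18.04 to 60.2 under the ketogenic diet (ratios 2.42 and 3.34). Srxn1, which repairs peroxiredoxins, went from 19.8 to 37.4 CPM under the normal diet and 12.2 to 43.2 under the ketogenic diet (ratios 1.89 and 3.54). With Slc7a11, the cystine importer, and Prdx1, a peroxidase, these were 4 of 16 measured genes of the NRF2 and BACH1 list that were higher in the normal library and 4 of 12 in the ketogenic one, beside 7.57% and 7.95% of all measured genes. Gsr, glutathione reductase, of the same list was lower in the ketogenic library, at a ratio of 0.535, and had 0.928 in the normal one. Slc7a11 had ratios of 1.85 and 1.83 and Prdx1 of 1.68 and 1.85. Slc48a1, which moves heme out of the phagolysosome, went from 46.8 to 108 CPM under the normal diet and 34.6 to 85.1 under the ketogenic diet (ratios 2.30 and 2.46), and Slc39a14, a zinc and iron importer, had ratios of 1.83 and 2.13. Lower in both were Hp, the hemoglobin scavenger haptoglobin, at 0.547 and 0.263, and Hfe, at 0.419 and 0.426.

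Between the diets, the lists moved little in macrophages, where 4 of 61 measured genes were higher and 6 lower, beside 2.3% and 12.1% of all measured genes, with a median log2 ratio of −0.17 beside −0.15 over all genes. Hp stood at 83.2 and 203 CPM, ratio 2.44 (2.16 to 2.75), Lcn2, which carries iron-binding siderophores, at 8.89 and 15.3 CPM, ratio 1.72 (1.13 to 2.59), Trf, transferrin, at 67.1 and 108 CPM, ratio 1.60 (1.38 to 1.86), and Gsr, glutathione reductase, at 77.8 and 124 CPM, ratio 1.59 (1.39 to 1.83). Mtf1, the zinc-sensing factor of the metallothionein promoters, was lower, at 21.9 and 12.1 CPM, ratio 0.551 (0.368 to 0.806). So were Ireb2, an iron regulatory protein (27.0 and 17.4 CPM, ratio 0.646), and the zinc exporters Slc30a5 (22.4 and 13.5 CPM, ratio 0.604) and Slc30a7 (28.8 and 19.2 CPM, ratio 0.666). Mt3 counts, 71 and 1, came largely from 1 normal barcode with 60.

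Monocytes had 3 of 53 list genes higher and 5 lower, beside 1.81% and 10.5% of all measured genes. Hp, a gene of the monocyte gate, stood at 440.1 and 769 CPM, ratio 1.75 (1.64 to 1.86), and Lcn2 at 13.3 and 37.7 CPM, ratio 2.83 (2.01 to 4.04). Slc48a1 was lower, at 32.9 and 19.1 CPM, ratio 0.582 (0.423 to 0.796), as were Mfsd12, a lysosomal transporter (24.9 and 13.5 CPM, ratio 0.543), Mafg, a partner of NRF2 and BACH1 (65.2 and 43.3 CPM, ratio 0.664), Gclc (11.9 and 6.77 CPM, ratio 0.569) and Slc30a9 (25.8 and 15.9 CPM, ratio 0.617). The Gclc interval was 0.327 to 0.968, and 1 normal barcode held 9 of its 42 UMIs there. Hp was also higher in NK cells, at 7.90 and 19.97 CPM, ratio 2.53 (1.87 to 3.47), and in CD8 T cells, at 18.2 and 58.2 CPM, ratio 3.19 (2.32 to 4.47). Barcodes with at most 100 UMIs, which hold free RNA, had 73.7 and 144 CPM of Hp, and the part of that RNA in these lymphocyte levels was not tested.

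NK cells had 1 of 58 list genes higher, Hp, and 4 lower, beside 1.87% and 6.64% of all measured genes. The lower ones were Lrp1, a receptor for heme bound to hemopexin (13.02 and 6.93 CPM, ratio 0.533), Slc11a2, an iron importer (13.6 and 8.78 CPM, ratio 0.646), G6pdx (16.4 and 10.9 CPM, ratio 0.666) and the copper pump Atp7a (9.07 and 4.90 CPM, ratio 0.540). CD8 T cells had 3 of 54 higher and 6 lower, beside 2.53% and 6.04% of all. Besides Hp, Bach1 (28.5 and 45.6 CPM, ratio 1.60) and Hfe (4.76 and 9.73 CPM, ratio 2.05) were higher. Hfe rested on 12 and 41 UMIs, with an interval of 1.06 to 4.28. Slc7a11 was lower there, at 21.4 and 8.78 CPM, ratio 0.410 (0.263 to 0.635), as were Fech, which places iron into heme (12.3 and 6.17 CPM, ratio 0.502), Osgin1 (29.7 and 17.8 CPM, ratio 0.599), Slc25a37, the mitochondrial iron importer (15.5 and 9.26 CPM, ratio 0.599), and Slc30a7 (20.6 and 11.4 CPM, ratio 0.553).

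Tfrc followed cell division in lymphocytes. Barcodes with at least 3 UMIs of cell cycle genes (Mki67, Top2a, Cdk1 and others) were 189 of 1117 NK cells under the normal diet and 316 of 1936 under the ketogenic diet. Tfrc went from 38.9 to 79.4 CPM, a ratio of 2.04 (1.65 to 2.53), between the other and the cycling NK cells of the normal library, and from 28.9 to 67.8 CPM, a ratio of 2.35 (1.95 to 2.84) in the ketogenic one. In CD8 T cells it went from 31.8 to 65.7 CPM, a ratio of 2.06 (1.40 to 3.08), and from 28.5 to 46.5 CPM, a ratio of 1.63 (1.17 to 2.32). All 4 ratios passed 1.5-fold, also with the cell cycle minimum doubled, where 9.76% and 12% of measured genes were higher in cycling NK cells and 12.2% and 10.7% in cycling CD8 T cells. Cycling barcodes were deeper, with median UMIs of 11178 against 4064 in normal NK cells, and the part of depth was not tested. Of all members, 5 of 8 measured (Hmox1, Blvrb, Tfrc, Mt1 and Mt2) were higher in cycling NK cells of the normal library and 2 of 8 (Slc11a1 and Tfrc) in the ketogenic one. In CD8 T cells these were 3 of 7 (Hmox1, Slc11a1 and Tfrc) and 1 of 8 (Tfrc). No member was lower, where 6.87% and 4.2% of genes were in NK and 3.98% and 3.01% in CD8 T cells. Tfrc was thus the member past 1.5-fold in all 4 comparisons.

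**Figure D4:**
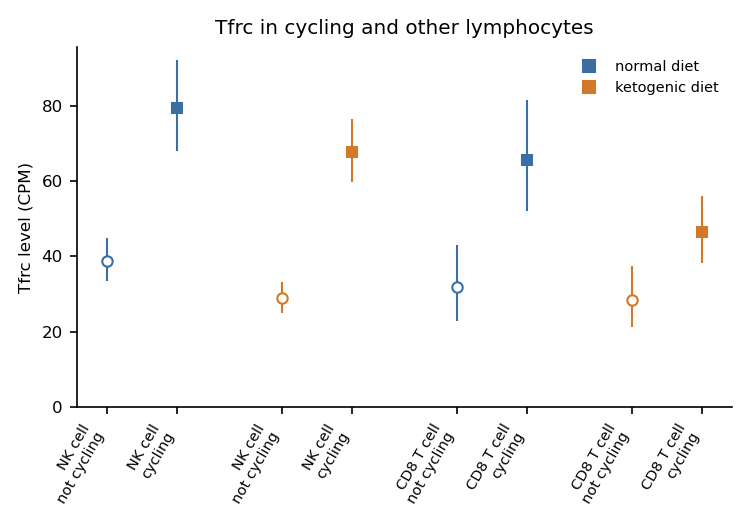
Tfrc level (CPM) in NK and CD8 T cells without (open circles) and with (filled squares) at least 3 UMIs of cell cycle genes, in the normal (blue) and ketogenic (orange) diet libraries. Bars are exact 95% Poisson intervals for counting error. The filled squares lie above the open circles in all 4 comparisons, and the intervals do not overlap.

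The balance of the 2 metallothionein genes differed between the libraries. Mt2 made up 10.3% (9.04 to 11.6) of the summed Mt1 and Mt2 UMIs in normal and 5.71% (4.33 to 7.36) in ketogenic macrophages. In NK cells the shares were 18.4% (16.2 to 20.8) and 11.8% (9.96 to 13.9), in CD8 T cells 18.04% (14.6 to 21.9) and 12.3% (9.93 to 15), and in non-immune barcodes 27.7% (25.9 to 29.6) and 17.2% (16.1 to 18.3). Arg1-high macrophages had 12.2% and 7.04%, Arg1-low 7.62% and 3.4%, and mixed barcodes 15.4% and 12.2%. The share was thus lower in the ketogenic library in these 4 classes. Monocytes, on few Mt2 UMIs, had 5.91% (3.86 to 8.60) and 3.22% (1.72 to 5.44). Regulatory T cells went the other way, with 12.6% (7.07 to 20.3) and 17.6% (6.76 to 34.5) on 14 and 6 Mt2 UMIs, and cDC2 held 1 Mt2 UMI per library. Barcodes with at most 100 UMIs, which hold free RNA, had 15.2% (12.5 to 18.3) and 13.8% (11.5 to 16.5), and the part of free RNA in the class shares was not tested.

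**Figure D5:**
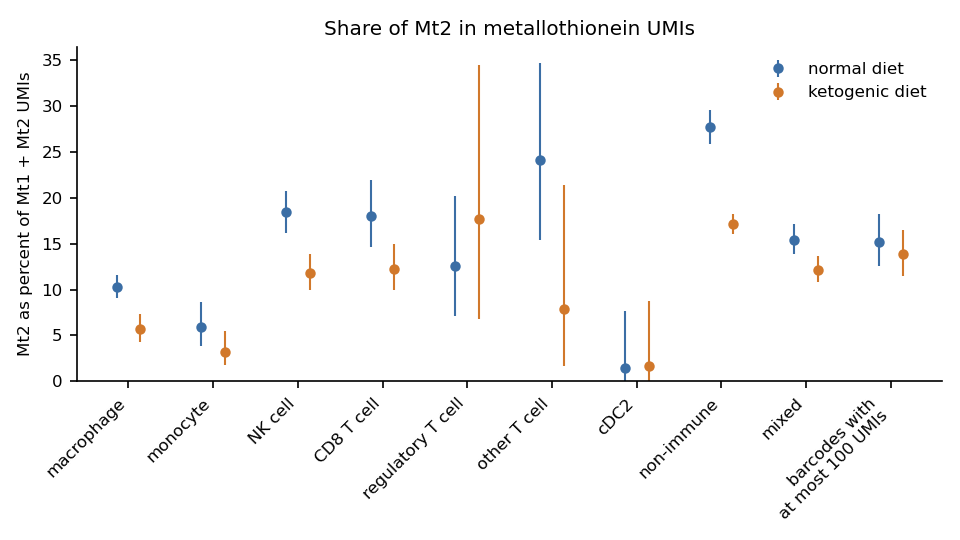
Mt2 as a percent of the summed Mt1 and Mt2 UMIs by class, in the normal (blue) and ketogenic (orange) diet libraries, with exact 95% Clopper-Pearson intervals for counting error. The ketogenic share is lower in macrophages, NK cells, CD8 T cells and non-immune barcodes, and lies close to the normal one in barcodes with at most 100 UMIs.

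Over the 18 profiles of class and library, taken as log2 of CPM with 20 CPM added, the genes most like each member among 10599 were named by Pearson correlation, as a description of profiles that share libraries. Closest to Ftl1 were Atp6v0c (0.97), Atp6ap1 (0.97) and Marcks (0.96), and closest to Fth1 were Atp6v0a1, Atp6v0c and C5ar1 (0.96 each), where the Atp6 genes encode parts of the pump that acidifies lysosomes. Hmox1 was most like Ftl1, Sgpl1 (0.93 each) and Atp6ap1 (0.92). Slc11a1 was most like Ninj1 (0.98), Cyp4f18 and Pla2g7 (0.97 each), and Blvrb like Nupr1 (0.95), Frrs1 and Myof (0.94 each). Tfrc was most like Kif20b, a mitotic kinesin (0.96), Itgb3bp (0.95) and AC149090.1 (0.94), Mt2 like Cmtm4 (0.97), Pgp (0.95) and Bicd1 (0.93), and Mt1 like Naa50 (0.89), Ppp2r5d and 4931406C07Rik (0.88 each). Slc40a1, far highest in neutrophils, was most like March7, Ankrd33b and Dhrs9 (0.96 each). Between members, Fth1 and Ftl1 had an r of 0.96, Mt1 and Mt2 0.85, Mt2 and Tfrc 0.85, and Tfrc and Slc11a1 −0.72.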

How the data were processed

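The authors deposited 1 matrix of UMI counts per library, whole numbers that were not normalized, with gene and barcode lists and all barcodes included. Libraries were made with a droplet 3′ kit, per the labels' protocols. Per the submitters' processing notes, Cell Ranger 6.0.0 and Seurat 3.2.0 were used with mm10, while Cell Ranger 4 stands in the header of the matrices, so which version counted them is not settled, and the treatment of reads that match several genes is not given in the sources used here. Seurat results were not used.

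Barcodes needed 500 UMIs and 300 genes to be kept, which left 5671 of 827272 listed (normal diet) and 5944 of 813678 (ketogenic diet). The kept counts summed to 35623303 and 39758619, and barcodes with at most 100 UMIs, read as free RNA, held 4.33% and 6.09% of all UMIs. A class gate needed at least 3 UMIs from at least 2 marker genes and a summed level past a minimum, such as 3000 CPM for macrophages, 5000 for monocytes, 20000 for neutrophils and 1000 for NK cells. Macrophages could also enter with 2500 CPM of the Arg1 list and 1500 of the macrophage list. These minimums were set after seeing the data. No doublet caller was run; barcodes with markers of several lineages were set aside.

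Counts were summed per class and library and scaled to CPM. With 1 library per diet there is no test between diets and no spread between mice. Levels carry exact Poisson intervals, ratios exact conditional ones and shares exact Clopper-Pearson ones, all at 95% and for counting error only. A difference was called where it reached 1.5-fold, and ratios between diets were measured for genes with at least 50 UMIs over both libraries. The ratio and its interval were tested on simulated data. These were Poisson class sums, as the intervals assume, without the clumping of UMIs in single barcodes. The simulation therefore cannot show how the intervals perform on clumped counts. The 9 members and the gene lists were chosen with earlier results of these data known. Beyond the members, the text names up to 4 genes per pathway list and class that passed 1.5-fold with an interval off 1, in classes with at least 300 barcodes per library. The alternatives changed the barcodes kept, free RNA, classes, single barcodes, scaling, filters and the fold, and the checks of the states without the top barcode and at 1000 UMIs were chosen after seeing the data. Clusters for the alternative classes used 2000 variable genes, 30 components, 15 neighbors and resolution 1.5 and excluded the members. The share of a cluster's gated barcodes that lay in its class ranged from 30.3% in a macrophage cluster to 98.8% in an NK cluster. It was 57.1% for cDC2 and 60.7% for other T cells, so cluster values are not equally pure alternatives. Clustering ran in scanpy 1.11.5, intervals in scipy 1.17.1 and plots in matplotlib 3.10.9, all under Python 3.11.15.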

Additional observations from a re-analysis of the deposited data

Results flagged for a closer look

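Mt1 moved in opposite directions between the diets in different classes. Its log2 ratio of ketogenic over normal was 0.62 in cDC2, where it was higher, and −1.60 in regulatory T cells and −1.55 in other T cells, where it was lower. With 1 library per diet, the difference between these ratios was not tested. A single normal barcode held 61 of 97 Mt1 UMIs in regulatory T cells and 51 of 63 in other T cells, and without the top barcodes the ratios were 0.49 in cDC2, −0.59 in regulatory T cells and 0.49 in other T cells.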

How the results depend on the processing

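Of the 55 log2 ratios of member and class, all 55 stayed inside their main interval with at most 10% mitochondrial UMIs and all 52 that could be measured did with at least 1000 UMIs per barcode. Classes rebuilt from graph clusters moved 26 of 55 outside it and reversed 2 called ones: Ftl1 in regulatory T cells to 0.062 and Mt1 in other T cells to 0.69. Without the barcode richest in the gene, 8 moved outside and Mt1 in other T cells reversed to 0.49. The count of pairs of member and class past 1.5-fold, 2 higher and 12 lower, was 1 and 6 with clusters and 1 and 7 with doubled marker minimums. It was 1 and 11 with ratios centred on the median gene and 0 and 8 with 20 CPM added. With a minimum of 20 UMIs it was 2 and 19, with 200 UMIs 0 and 5, and at 2-fold 0 and 7. Subtracting free RNA gave 3 and 15 pairs, and leaving out the top barcode 2 and 8. The shares of all genes under these settings are not given here. Mt2 and Hmox1 in NK cells were past the limit, lower, under each of these except that Hmox1 there was counted at a level several times lower by cluster; Mt2 in macrophages was not past the limit with 20 CPM added or at 2-fold, and Slc40a1 in macrophages not with doubled minimums, 20 CPM added or 200 UMIs, the first and last because it had too few UMIs to be measured. The cause of the other changes was not tested. The highest class of each gene in each library, 18 cases, was the same in 18 with free RNA subtracted, 17 with clusters, 16 with doubled minimums and 17 without the top barcode. The share of macrophages with a Hmox1 UMI, 24.1% and 23.8%, was 15.9% and 16.6% thinned to 500 UMIs and 48.9% and 42.3% unthinned. Over all classes, 18 pairs of pathway gene and class were higher and 29 lower, and 41 and 54 with a minimum of 20 UMIs. A gene such as Hp is counted once in each class where it passed, and the share of all genes at the lower minimum is not given here. The 5 members higher in Arg1-high macrophages of both libraries and the 4 Tfrc comparisons of cycling cells held their counts with doubled minimums. No paired analysis was possible because each diet has 1 library and the labels give no shared replicate numbers. Few barcodes, and in neutrophils also low depth, limit what could be measured in neutrophils, cDC2 and regulatory T cells.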
